A study of Homo sapiens with 30 samples.

Results

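The Frizzled receptors FZD1 to FZD10 are the 10 human genes of the WNT receptor family. They were taken as the entries with exactly these symbols, and all 10 were found among the 41495 entries of the time course. Each reached at least 1 FPKM (a read level scaled to transcript length and to library size) at 1 or more time points, as did 21715 entries in all. The authors' table of the day 3 sort listed 6 of the 10 among its 4648 genes. Their table of the day 4 sort listed 7 of the 10 among its 4825 genes.

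A Frizzled is a receptor that crosses the membrane 7 times and binds a WNT ligand through a cysteine-rich domain outside the cell. With the co-receptors LRP5 and LRP6 it recruits Dishevelled proteins and keeps beta-catenin from being broken down. With ROR2 or other partners it feeds into cell polarity and movement without beta-catenin. WNT signalling is needed to form mesoderm in the primitive streak and is later held down while heart muscle is specified. By sequence the family falls into close relatives: FZD1, FZD2 and FZD7, then FZD5 and FZD8, then FZD4, FZD9 and FZD10, and the more distant FZD3 and FZD6.

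RNA of H7 cells, 1 established human embryonic stem cell line, was sequenced in 30 libraries during directed differentiation to cardiomyocytes. The 11 time points were undifferentiated cells (hESC), days 1, 2, 3, 4, 5, 6, 8, 10 and 15 (D1 to D15) and cardiomyocytes of day 31 enriched on Percoll, a density gradient. Every group but hESC had received 12 µM CHIR99021, an inhibitor of the kinase GSK3 that acts inside the cell below the receptors, for 24 hours, and groups after D1 then 5 µM IWP4, a blocker of WNT secretion, for 2 days, which D2 cells need not have completed. At day 3, sorted ROR2-positive cells (PMESO) were set against their ROR2-negative counterpart, D3 ROR2(-), and at day 4, sorted cells bearing both ROR2 and PDGFRa (CMESO) were set against D4 ROR2(+)/PDGFRa(-) cells.

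Each group had 2 libraries, but 1 value per gene and group was deposited, so the time course has no spread between libraries and no test. There, higher and lower mean that log2(FPKM + 1) lay 1 or more apart, so 2-fold refers to FPKM + 1 and not to the plain ratio of FPKM values, which can be larger. Whole-culture samples cannot tell fewer cells of a type from less RNA per cell. Low values placed the depth of the time points between 0.536 (D15) and 1.11 (D6) times that of D1. The labels fitted their markers: POU5F1 was 1026 FPKM in hESC, the streak gene T was 118 FPKM at D1, and TNNT2 was 2785 FPKM in cardiomyocytes. In the authors' deposited table MESP1 was 5.79 FPKM in PMESO cells, against 0.262 FPKM in D3 ROR2(-) cells. In that authors' deposited table for day 4, PDGFRA was 304 FPKM in CMESO cells, against 8.28 FPKM in D4 ROR2(+)/PDGFRa(-) cells.

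The 250 bases before the RefSeq start of transcription (GRCh38.p14, a later build than the authors' hg19) are given for 4 members, with CG dinucleotides in capitals. FZD4 and FZD8 had the largest differences between PMESO and D3 ROR2(-) cells. FZD5 had the largest difference between the day 4 populations, and FZD1 had the largest difference between cardiomyocytes and hESC. Promoters were analysed for 5 members, these 4 and FZD9. Those of the other members were not analysed, which does not mean that the RefSeq table lacked them. FZD1 lies on the plus strand at chr7:91264183-91264432. FZD4 lies on the minus strand at chr11:86955396-86955645. FZD5 lies on the minus strand at chr2:207769907-207770156. FZD8 lies on the minus strand at chr10:35642297-35642546.
FZD1: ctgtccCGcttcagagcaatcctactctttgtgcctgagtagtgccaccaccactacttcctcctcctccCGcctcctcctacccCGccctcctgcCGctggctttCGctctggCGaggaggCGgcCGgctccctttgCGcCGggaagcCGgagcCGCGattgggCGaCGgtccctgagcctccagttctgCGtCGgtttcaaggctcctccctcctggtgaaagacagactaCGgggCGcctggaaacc
FZD4: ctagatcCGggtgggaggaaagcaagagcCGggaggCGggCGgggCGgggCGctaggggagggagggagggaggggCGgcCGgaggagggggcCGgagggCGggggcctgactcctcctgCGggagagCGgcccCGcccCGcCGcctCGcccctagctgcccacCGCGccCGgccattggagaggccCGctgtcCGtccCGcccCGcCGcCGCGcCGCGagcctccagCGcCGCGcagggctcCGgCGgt
FZD5: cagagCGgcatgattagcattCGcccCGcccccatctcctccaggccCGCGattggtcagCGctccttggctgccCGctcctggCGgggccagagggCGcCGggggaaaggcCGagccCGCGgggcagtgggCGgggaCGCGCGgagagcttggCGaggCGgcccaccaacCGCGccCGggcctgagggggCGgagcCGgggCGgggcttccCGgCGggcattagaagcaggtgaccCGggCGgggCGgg
FZD8: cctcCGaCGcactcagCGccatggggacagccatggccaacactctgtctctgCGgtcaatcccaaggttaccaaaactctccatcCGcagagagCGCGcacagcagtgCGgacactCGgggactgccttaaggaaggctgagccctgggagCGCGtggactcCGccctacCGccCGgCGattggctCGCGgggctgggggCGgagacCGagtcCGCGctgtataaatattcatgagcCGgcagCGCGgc

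The 5 analysed promoters held 19 CG dinucleotides in FZD1, 33 in FZD4, 30 in FZD5, 24 in FZD8 and 23 in FZD9. The median was 11 over 35116 human promoters of the same length. Of all these promoters, 65.4% held fewer than FZD1, 74.2% fewer than FZD9, 76.3% fewer than FZD8, 87.6% fewer than FZD5 and 91.9% fewer than FZD4. The words CTTTGA and CTTTGT, the core read by the WNT effectors of the TCF and LEF family, were searched on both strands. Of the 5, FZD1 held 1 match, CTTTGT, at positions -224 to -219 before the start, and 22.8% of all promoters held at least 1. A match describes the letters and is not a binding site, and a missing match says nothing about the factor. Neither binding nor promoter activity was measured in the tables used here.

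FZD7 led the family until the last time point. It binds several WNTs and is the receptor of this family best known from human embryonic stem cells. FZD7 was 34.6 FPKM in hESC and then 31.2, 58.4, 32.9, 31.2, 28.3, 55.9, 42.2, 39.2 and 38.1 FPKM from D1 to D15, with 16.1 FPKM in cardiomyocytes. As deposited, it stood highest at D2 and nearly as high at D6. A rescaling to abundant protein-coding genes, used below, divided the columns by 1.18 at D2, 1.05 at D6 and 0.690 at D15. The time point of its highest value thus depends on the scaling. Under either scaling, FZD7 was the most abundant member at every time point but the last. Its share of the summed Frizzled FPKM was 38.9% in hESC and 11.6% in cardiomyocytes.

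FZD1 and FZD2 are the closest relatives of FZD7, and both were low in hESC. FZD1 was 0.869 FPKM in hESC and then 4.43, 4.41, 7.00, 5.02, 4.75, 9.96, 9.50, 8.18 and 18.2 FPKM from D1 to D15, with 38.5 FPKM in cardiomyocytes. This was the highest value of any member in cardiomyocytes and 27.9% of the family there, against 0.975% in hESC. FZD2, which can act with ROR2 as a receptor for WNT5A, was 1.82 FPKM in hESC and then 4.50, 9.75, 3.97, 10.9, 8.56, 10.6, 9.33, 9.57 and 31.1 FPKM from D1 to D15, with 16.7 FPKM in cardiomyocytes. FZD2 was highest at D15, in the culture not enriched on Percoll.

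FZD4 had its highest values in the middle of the course. It is a receptor for WNTs and for Norrin (NDP), a ligand of another family, and is best known from blood vessels of the retina. FZD4 was 3.85 FPKM in hESC and then 2.23, 4.13, 4.86, 23.4, 25.1, 40.8, 27.9, 30.2 and 15.4 FPKM from D1 to D15, with 11.7 FPKM in cardiomyocytes. From D4 to D10 it was the second member of the family after FZD7. NDP stayed at or below 0.752 FPKM at every time point, and TSPAN12, the tetraspanin that assists FZD4 with Norrin, was highest at D2 with 20.1 FPKM.

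FZD4 and the protease gene PRSS23 have overlapping exons on opposite strands in GENCODE 29. The strand setting of the authors' counting is not given in the sources used here, so reads of that overlap cannot be told apart. PRSS23 was 4.24 FPKM at D3, 9.91 at D4, 38.1 at D6 and 129 at D15. From D3 to D6 both genes had higher values at each later point named, and at D15 PRSS23 was above and FZD4 below its D6 value. The part of PRSS23 reads in the FZD4 values was not tested.

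FZD6 and FZD3 are known in the mouse for the orientation of hairs and the guidance of axons, both polarity roles. FZD6 was 4.13 FPKM in hESC and then 6.45, 5.61, 12.7, 13.3, 17.1, 24.8, 25.2, 26.4 and 22.4 FPKM from D1 to D15, with 20.3 FPKM in cardiomyocytes. FZD3 was 24.5 FPKM in hESC and then 22.6, 19.6, 26.0, 17.6, 18.3, 15.5, 14.7, 14.1 and 14.7 FPKM from D1 to D15, with 11.8 FPKM in cardiomyocytes. FZD3 thus stood above FZD6 from hESC to D5 and below it from D6 on. As deposited, the sum of both lay between 25.2 FPKM at D2 and 40.6 FPKM at D10. This range depends on the scaling, as the rescaling divided D2 by 1.18 and D15 by 0.690. FZD6 has an exon overlap on the opposite strand with BAALC-AS1, which was not analysed here.

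FZD5 and FZD8, another pair of close relatives, had opposite ends. FZD5, a receptor needed for eye and gut development in the mouse, was 16.5 FPKM in hESC and then 4.10, 3.73, 4.95, 5.41, 4.29, 4.44, 4.61, 7.14 and 2.27 FPKM from D1 to D15, with 3.83 FPKM in cardiomyocytes. FZD8 was 1.06 FPKM in hESC and then 0.852, 4.34, 5.40, 3.51, 5.42, 7.26, 6.71, 9.69 and 12.2 FPKM from D1 to D15, with 18.3 FPKM in cardiomyocytes. FZD5 was the third member of the family in hESC, and FZD8 was the third in cardiomyocytes. The microRNA gene MIR4683, which lies in an exon of FZD8 on the same strand, was listed at 0 throughout.

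FZD10, which marks the primitive streak region of vertebrate embryos, was a transient of the first days. It was 0.486 FPKM in hESC and then 12.9, 8.13, 4.66, 2.53, 1.23, 0.713, 0.334, 0.207 and 0.319 FPKM from D1 to D15, with 0.0358 FPKM in cardiomyocytes. At D1 it made up 14.2% of the summed Frizzled FPKM. FZD9, which lies in the chromosome 7 region lost in Williams syndrome, stayed below 2 FPKM, with 1.28 FPKM in hESC and then 1.45, 1.96, 0.890, 0.768, 1.29, 0.691, 0.711, 0.892 and 0.930 FPKM from D1 to D15 and 0.724 FPKM in cardiomyocytes.

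**Figure D1:**
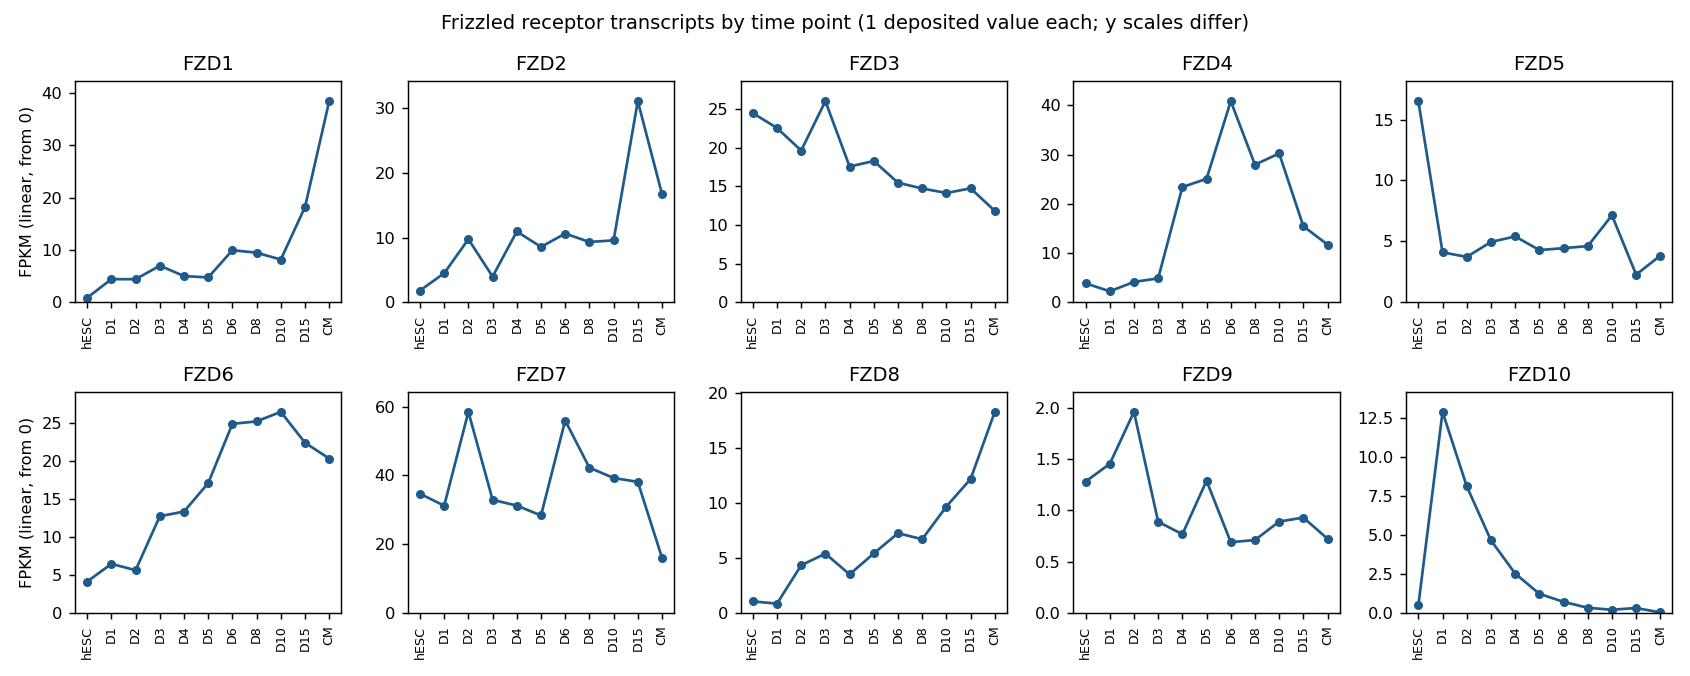
FPKM of each of the 10 Frizzled receptors at the 11 time points, 1 panel a gene, each point being the 1 value deposited for 2 libraries. FZD10 stands highest at D1 with 12.9 FPKM, FZD4 at D6 with 40.8 FPKM and FZD1 in cardiomyocytes with 38.5 FPKM.

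The summed Frizzled FPKM, as deposited, was 89.1 in hESC and then 90.7, 120.1, 103, 114, 114, 171, 141, 146 and 156 from D1 to D15, with 138 in cardiomyocytes. The highest sum was thus 1.92 times the lowest. When each column was rescaled by its median ratio over abundant protein-coding genes, the highest sum stood at D15 (226) and the lowest at D1 (73.4), 3.08 times apart. The order at the top also changed: FZD7 and FZD3 together held 66.3% of the sum in hESC, and FZD1 and FZD6 were the leading members in cardiomyocytes with 42.6%. The number of members at 10 FPKM or more was 3 in hESC, 5 at D4 and 7 in cardiomyocytes.

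**Figure D2:**
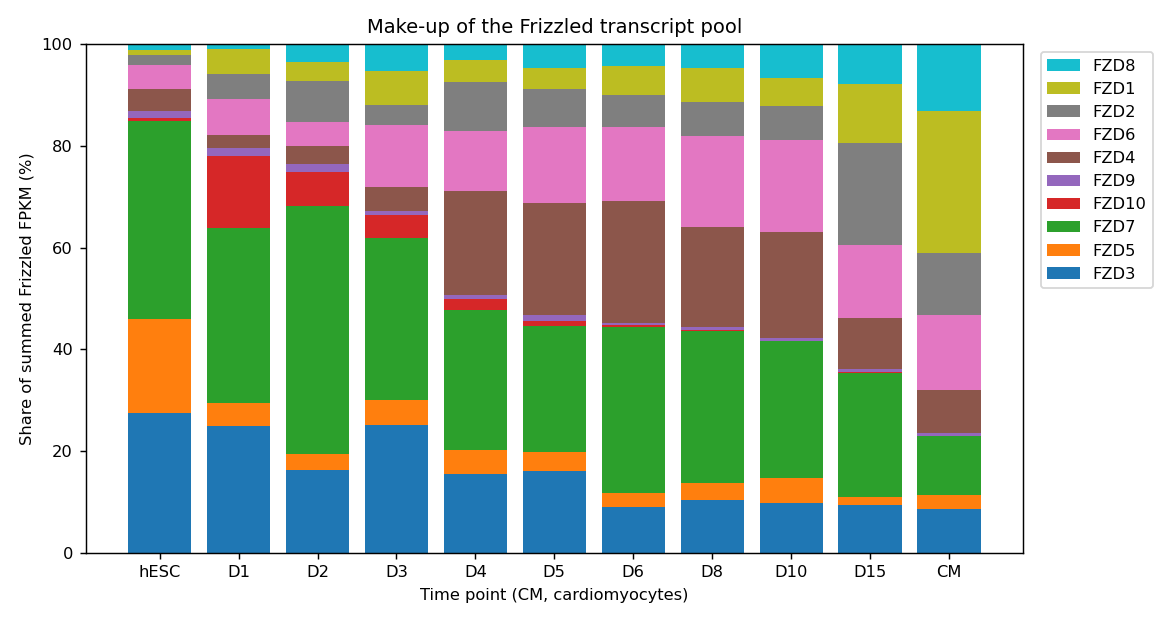
Share of each Frizzled receptor in the summed Frizzled FPKM, in percent, at the 11 time points. FZD7 takes 38.9% in hESC and 11.6% in cardiomyocytes, and FZD1 takes 0.975% in hESC and 27.9% in cardiomyocytes.

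In the first 24 hours, under CHIR99021, FZD10 and FZD1 were higher at D1 and FZD5 was lower. FZD10 was 12.9 FPKM at D1, against 0.486 FPKM in hESC, a log2 difference of 3.23. FZD1 was 4.43 FPKM at D1, against 0.869 FPKM in hESC, a log2 difference of 1.54. FZD5 was 4.10 FPKM at D1, against 16.5 FPKM in hESC, a log2 difference of -1.78. Thus 2 of 10 members were at least 2-fold higher and 1 was lower, where 12.0% of all 21715 entries were higher and 11.1% were lower. FZD2 lay just below the threshold, with a log2 difference of 0.97. The median log2 difference of the members was -0.0042, against 0 for all entries.

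Other genes of the pathway were counted over the same step. Of 9 Frizzled turnover genes 1 was higher and 0 lower, and of 13 transducers inside the cell 2 were higher and 2 lower. All 5 response genes, which WNT signalling through beta-catenin is known to switch on, were higher at D1. AXIN2, a brake of the pathway, was 118 FPKM at D1, against 4.22 FPKM in hESC. Of 20 ligands, 12 reached 1 FPKM at some time point, and 5 of these were higher and 0 lower. WNT5B was 147 FPKM at D1, against 1.69 FPKM in hESC, and WNT3, a ligand of the streak, was 10.7 FPKM at D1, against 0.842 FPKM in hESC. Of 9 co-receptors 3 were higher, among them ROR2 with 9.66 FPKM at D1, against 1.66 FPKM in hESC. SFRP1, a secreted protein with a Frizzled-like domain that binds WNTs, was 5.38 FPKM at D1, against 119 FPKM in hESC. All 4 primitive streak markers were higher too, with a sum of 419 FPKM at D1, against 1.32 FPKM in hESC, and their part in the Frizzled values was not tested.

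Between D1 and D4, the interval that held the IWP4 treatment, FZD4, FZD8 and FZD2 were higher and FZD10 was lower. FZD4 was 23.4 FPKM at D4, against 2.23 FPKM at D1, a log2 difference of 2.92. FZD8 was 3.51 FPKM at D4, against 0.852 FPKM at D1, a log2 difference of 1.28. FZD2 differed by 1.12 on the log2 scale and FZD10 by -1.98. In all, 3 of 10 members were higher and 1 lower, where 9.19% of all entries were higher and 11.9% were lower. FZD6 fell just short with 0.94, and with rescaled columns its log2 difference was 1.25. The members had a median of 0.24, against 0.013 for all entries.

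The D4 step of FZD4 was a late one. With D3 in place of D4, FZD4 was 4.86 FPKM, against 2.23 FPKM at D1, which is under 2-fold on log2(FPKM + 1), and 1 of 10 members (FZD8) passed that threshold. Over the same interval the Frizzled turnover genes split. LGR5 and LGR4, receptors for R-spondins, were higher: LGR4 was 95.7 FPKM at D4, against 15.8 FPKM at D1. RNF43 and ZNRF3, the ubiquitin ligases that clear Frizzleds from the cell surface, were lower: RNF43 was 6.49 FPKM at D4, against 22.2 FPKM at D1. Of the response genes 4 of 5 were lower.

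Cell type markers differed between D1 and D4 too. All 4 primitive streak markers were lower, with a sum of 6.89 FPKM at D4, against 419 FPKM at D1. Of the cardiac mesoderm markers 4 of 5 were higher, with a sum of 289 FPKM at D4, against 27.6 FPKM at D1. Of the stroma markers 4 of 5 were higher, with a sum of 183 FPKM at D4, against 7.52 FPKM at D1. Of the cardiomyocyte markers 3 of 5 were higher, with a sum of 129 FPKM at D4, against 22.8 FPKM at D1. Of the pluripotency markers 3 of 5 were lower. Of the endoderm markers 1 of 3 was lower and 0 higher. The part of these cell types in the Frizzled values was not tested.

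Between D4 and D10, 1 of 10 members was higher and 1 lower, where 5.49% of all entries were higher and 3.35% were lower. FZD8 was 9.69 FPKM at D10, against 3.51 FPKM at D4, a log2 difference of 1.24. FZD10 was 0.207 FPKM at D10, against 2.53 FPKM at D4, a log2 difference of -1.55. With D8 in place of D10, 0 of 10 members were higher. All 5 cardiomyocyte markers were higher over this step, with a sum of 3504 FPKM at D10, against 129 FPKM at D4. Of the stroma markers 4 of 5 were higher, with a sum of 851 FPKM at D10, against 183 FPKM at D4. Of the pluripotency markers 4 of 5 were lower, and of the cardiac mesoderm markers 3 of 5 were lower. The part of these cell types in the FZD8 and FZD10 values was not tested. The median of the members was 0.33, against -0.0036 for all entries.

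Between D10 and D15, FZD2 and FZD1 were higher and FZD5 was lower. FZD2 was 31.1 FPKM at D15, against 9.57 FPKM at D10, a log2 difference of 1.60. FZD1 was 18.2 FPKM at D15, against 8.18 FPKM at D10, a log2 difference of 1.07. FZD5 was 2.27 FPKM at D15, against 7.14 FPKM at D10, a log2 difference of -1.32 that was -0.98 with rescaled columns. In all, 2 of 10 members were higher and 1 lower, where 6.32% of all entries were higher and 9.51% were lower. The members had a median of 0.043, against -0.044 for all entries.

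Markers of stroma moved over this step too. Of 5 such genes 4 were higher, none was at 0, and their sum was 3010 FPKM at D15, against 851 FPKM at D10. Of the cardiomyocyte markers 2 of 5 were higher and 0 lower, with a sum of 7201 FPKM at D15, against 3504 FPKM at D10. Of the pluripotency markers 3 of 5 were lower and 0 higher. The part of these cell types in the FZD2, FZD1 and FZD5 values was not tested.

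Between the culture of D15 and the Percoll-enriched cardiomyocytes, which differ in both age and enrichment, FZD1 was higher and FZD7 lower. FZD1 was 38.5 FPKM in cardiomyocytes, against 18.2 FPKM at D15, a log2 difference of 1.04 that was 0.64 with rescaled columns. FZD7 was 16.1 FPKM in cardiomyocytes, against 38.1 FPKM at D15, a log2 difference of -1.20. FZD2 was 16.7 FPKM in cardiomyocytes, against 31.1 FPKM at D15, and with rescaled columns it passed the threshold at -1.27. In all, 1 of 10 members was higher and 1 lower, where 7.23% of all entries were higher and 4.07% were lower. The stroma markers summed to 931 FPKM in cardiomyocytes, against 3010 FPKM at D15, with 4 of 5 lower. Of the cardiomyocyte markers 3 of 5 were higher and 0 lower, with a sum of 11031 FPKM in cardiomyocytes, against 7201 FPKM at D15. The part of these cell types in the Frizzled values was not tested. The median of the members was -0.23, against 0.12 for all entries.

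Over the whole course, 5 of 10 members were higher in cardiomyocytes than in hESC and 2 were lower, where 18.7% of all entries were higher and 16.9% were lower. FZD1 was 38.5 FPKM in cardiomyocytes, against 0.869 FPKM in hESC, a log2 difference of 4.40. FZD8 differed by 3.23, FZD2 by 2.66, FZD6 by 2.05 and FZD4 by 1.39 on the log2 scale. FZD5 was 3.83 FPKM in cardiomyocytes, against 16.5 FPKM in hESC, a log2 difference of -1.86. FZD7 was 16.1 FPKM in cardiomyocytes, against 34.6 FPKM in hESC, a log2 difference of -1.06 that was -0.87 with rescaled columns. With a pseudocount of 0.1 in place of 1, 4 members were lower, FZD3 and FZD10 being the ones added. FZD3 was 11.8 FPKM in cardiomyocytes, against 24.5 FPKM in hESC, and FZD10 was 0.0358 FPKM in cardiomyocytes, against 0.486 FPKM in hESC. The members had a median of 0.49, against 0.030 for all entries. All 5 pluripotency markers were lower in cardiomyocytes, and all 5 cardiomyocyte and all 5 stroma markers were higher. The stroma markers summed to 931 FPKM in cardiomyocytes, against 33.1 FPKM in hESC, and the part of these cell types in the Frizzled values was not tested.

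**Figure D3:**
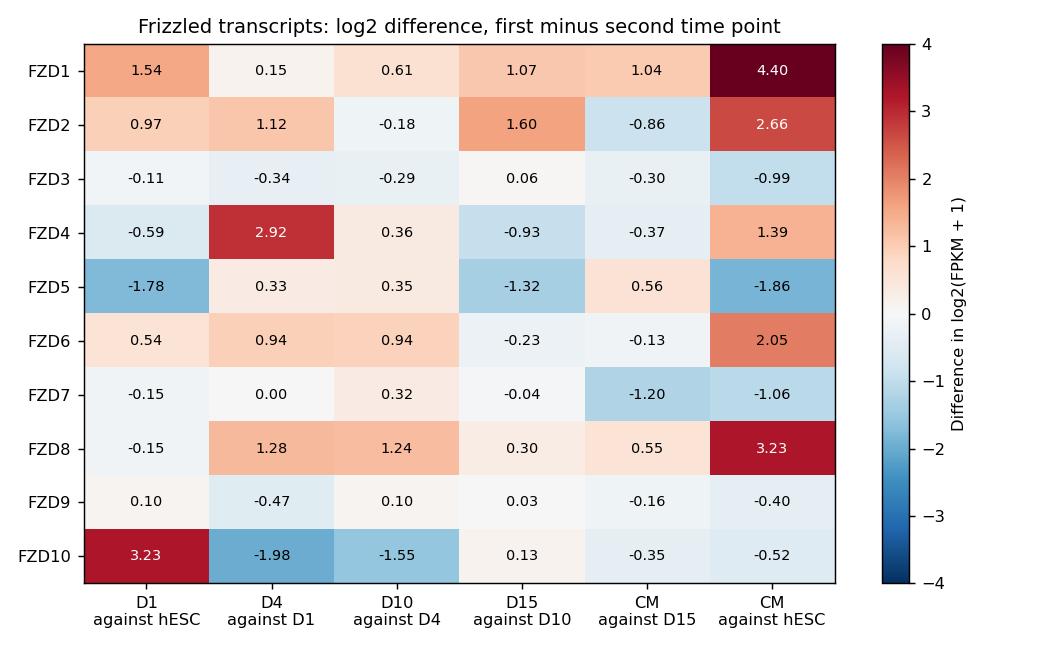
Log2 difference of each Frizzled receptor, on the log2(FPKM + 1) scale, in the 6 comparisons of the time course, the later group minus the earlier one. FZD1 is at 4.40 between cardiomyocytes and hESC, and FZD10 is at 3.23 between D1 and hESC and at -1.98 between D4 and D1.

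At day 3 the authors' deposited table listed 6 of 10 members at a q-value under 0.05, 3 higher and 3 lower in PMESO cells, where 15.6% of about 16466 genes tested were higher and 12.6% were lower. In the authors' deposited table FZD4 was 11.8 FPKM in PMESO cells, against 1.58 FPKM in D3 ROR2(-) cells, a log2 fold change of 2.91 with a q-value of 0.000375. FZD8 was 13.5 FPKM in PMESO cells, against 2.09 FPKM in D3 ROR2(-) cells, a log2 fold change of 2.70 in the authors' deposited table. FZD7 was 64.4 FPKM in PMESO cells, against 31.6 FPKM in D3 ROR2(-) cells, a log2 fold change of 1.02 in the authors' deposited table. The member that led the family was thus higher in the ROR2-positive cells, together with FZD4 and FZD8. That pair stood near 5 FPKM in the whole culture of D3, in a time course that may be scaled differently from the sort.

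The members lower in PMESO cells had smaller differences or low levels. FZD10 was 1.56 FPKM in PMESO cells, against 3.92 FPKM in D3 ROR2(-) cells, a log2 fold change of -1.33 in the authors' deposited table. FZD5 was 9.17 FPKM in PMESO cells, against 11.7 FPKM in D3 ROR2(-) cells, a log2 fold change of -0.36 with a q-value of 0.0105 in the authors' deposited table. FZD9 was 0.825 FPKM in PMESO cells, against 1.26 FPKM in D3 ROR2(-) cells, with a q-value of 0.0400 in the authors' deposited table. The authors' deposited table places FZD8 at chr10:35927177-35930362 and FZD4 in a locus of 164333 bases, chr11:86502101-86666433 (hg19). The limit from the exon overlap with PRSS23 holds for the FZD4 values of this sort too, and its part was not tested. FZD1, FZD2, FZD3 and FZD6 were not listed, and a gene that is not listed cannot be read as equal. The median of the 6 listed members was 0.33 in the authors' deposited table, against 0.47 for all genes listed.

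Partners of the receptors were listed for the same sort. ROR2, on which the cells were sorted, was 72.0 FPKM in PMESO cells, against 5.90 FPKM in D3 ROR2(-) cells in the authors' deposited table. All 5 listed turnover genes of 9 were higher, with LGR5 at 43.7 FPKM in PMESO cells, against 1.03 FPKM in D3 ROR2(-) cells in the authors' deposited table. WNT5A, a ligand of ROR2, was 33.0 FPKM in PMESO cells, against 2.93 FPKM in D3 ROR2(-) cells in the authors' deposited table. In the authors' deposited table all 5 pluripotency markers were lower in PMESO cells, with sums of 471 FPKM in PMESO cells, against 1091 FPKM in D3 ROR2(-) cells, and all 3 endoderm markers were higher, with sums of 25.4 FPKM in PMESO cells, against 3.56 FPKM in D3 ROR2(-) cells. All 5 cardiac mesoderm markers, ROR2 among them, were higher, with a sum of 336 FPKM in PMESO cells, against 27.9 FPKM in D3 ROR2(-) cells. All 4 primitive streak markers were higher, with a sum of 72.8 FPKM in PMESO cells, against 9.77 FPKM in D3 ROR2(-) cells. Of the 3 listed cardiomyocyte markers 2 were higher and 1 lower, and the 1 listed endothelium marker was lower. These values too are from the authors' deposited table. None of these was at 0, and their part in the Frizzled differences was not tested.

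At day 4 the authors' deposited table listed 7 of 10 members, 2 higher and 5 lower in CMESO cells, where 17.8% of about 12892 genes tested were higher and 19.7% were lower. FZD5 was 3.96 FPKM in CMESO cells, against 48.0 FPKM in D4 ROR2(+)/PDGFRa(-) cells, a log2 fold change of -3.60 with a q-value of 0.000269 in the authors' deposited table. FZD5 was thus 12.1-fold higher in the PDGFRa-negative cells, and its fold change ranked 22 from the lowest among the 4825 genes of the authors' deposited table. In the whole culture of D4 FZD5 was 5.41 FPKM, and its highest value of a whole culture was 16.5 FPKM, in hESC. These values are from a table that may be scaled differently. The authors' deposited table places FZD5 at chr2:208627310-208634287 (hg19).

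The other members differed less or were low. FZD10 was 0.0669 FPKM in CMESO cells, against 0.654 FPKM in D4 ROR2(+)/PDGFRa(-) cells, with a q-value of 0.00686 in the authors' deposited table. FZD8 was 9.26 FPKM in CMESO cells, against 5.61 FPKM in D4 ROR2(+)/PDGFRa(-) cells, a log2 fold change of 0.72 in the authors' deposited table. FZD6 was 14.4 FPKM in CMESO cells, against 11.0 FPKM in D4 ROR2(+)/PDGFRa(-) cells, with a q-value of 0.0391 in the authors' deposited table. That table places FZD6 in a locus of 211835 bases, chr8:104133260-104345094 (hg19). BAALC, a neighbour of FZD6, was 24.2 FPKM in CMESO cells, against 2.01 FPKM in D4 ROR2(+)/PDGFRa(-) cells in the authors' deposited table. The part of BAALC in the FZD6 values was not tested. FZD3, FZD9 and FZD1 were lower in CMESO cells with log2 fold changes of -0.57, -0.75 and -0.40 in the authors' deposited table. FZD2, FZD4 and FZD7 were not listed. The median of the 7 listed members was -0.57 in the authors' deposited table, against -0.37 for all genes listed.

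Markers of several cell types moved with the day 4 sort. FOXA2 was 3.16 FPKM in CMESO cells, against 23.0 FPKM in D4 ROR2(+)/PDGFRa(-) cells in the authors' deposited table. SOX2 was 0.529 FPKM in CMESO cells, against 13.7 FPKM in D4 ROR2(+)/PDGFRa(-) cells in the authors' deposited table. In the authors' deposited table the endoderm markers summed to 7.22 FPKM in CMESO cells and 33.5 FPKM in D4 ROR2(+)/PDGFRa(-) cells, with 2 of 3 lower and AFP higher. The 4 listed of 5 pluripotency markers were lower and summed to 308 FPKM in CMESO cells and 500 FPKM in D4 ROR2(+)/PDGFRa(-) cells in the authors' deposited table. The 3 listed of 5 cardiac mesoderm markers, PDGFRA among them, were higher, with 585 FPKM in CMESO cells and 22.2 FPKM in D4 ROR2(+)/PDGFRa(-) cells. All 5 cardiomyocyte markers were higher, with 592 FPKM and 42.1 FPKM in the same order. Of 4 listed stroma markers 3 were higher and 1 lower, with 248 FPKM and 32.4 FPKM. The 2 listed primitive streak markers were lower. These sums too are from the authors' deposited table. None was at 0, and the part of these markers in the FZD5 difference was not tested.

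Across both sorts FZD8 was higher in the sorted mesoderm, and FZD5, FZD9 and FZD10 were lower, in the authors' deposited tables. FZD9 and FZD10 did so at levels under 4 FPKM. For FZD5 the log2 fold change was -0.36 at day 3 and -3.60 at day 4. FZD5 at day 3 and FZD9 in both sorts had q-values above 0.01 in the authors' deposited tables. The FZD4 difference of day 3 had no listed counterpart at day 4.

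**Figure D4:**
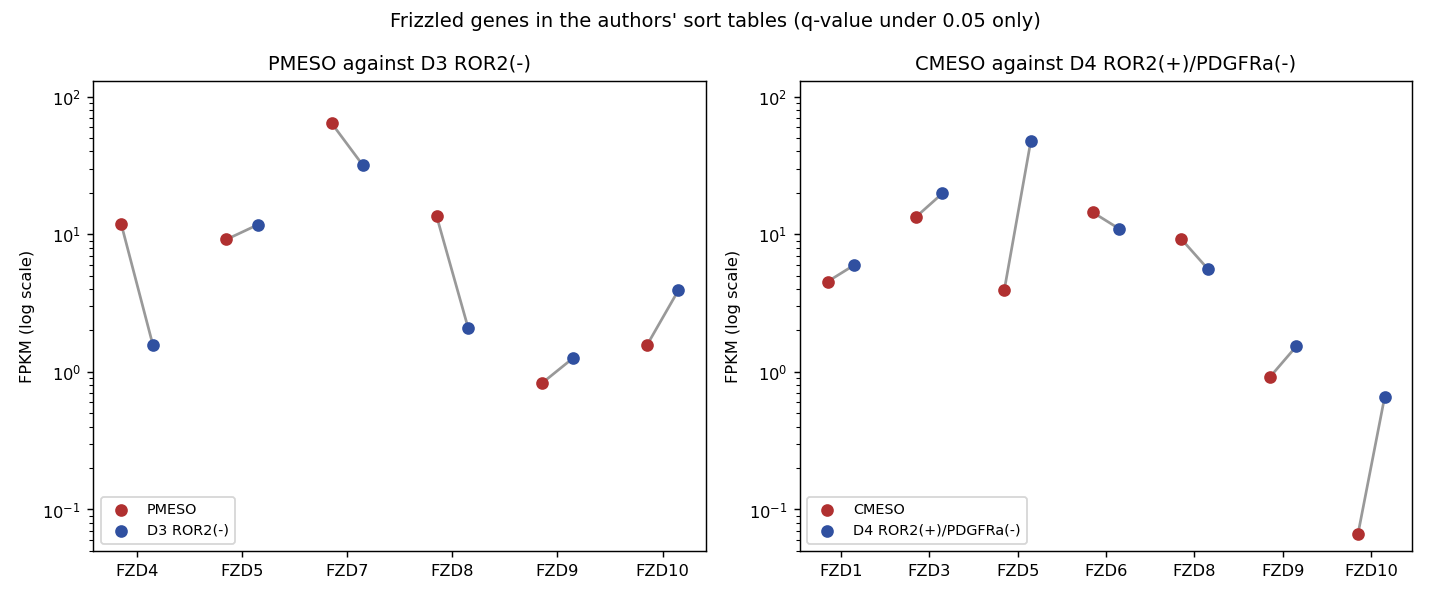
FPKM of the listed Frizzled receptors in both sorts, from the authors' deposited tables, with the sorted mesoderm population beside its negative counterpart. FZD4 and FZD8 stand higher in PMESO cells, and FZD5 stands at 3.96 FPKM in CMESO cells and 48.0 FPKM in D4 ROR2(+)/PDGFRa(-) cells.

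The secreted Frizzled-related proteins, which carry the cysteine-rich domain without a membrane part, were set beside the receptors. Their summed FPKM was 184 in hESC and then 55.3, 98.6, 73.0, 68.0, 127, 253, 226, 224 and 199 from D1 to D15, with 192 in cardiomyocytes. Divided by the Frizzled sum, this gave 2.06 in hESC, 0.610 at D1, 0.599 at D4, 1.48 at D6 and 1.39 in cardiomyocytes. SFRP1 was the largest part of the sum in hESC, with 119 FPKM, and from D3 on. SFRP5, a marker of cardiac progenitors in the mouse, was highest at D6 with 87.2 FPKM, the time point at which FZD4 was highest too. The summed ligands followed another course, with 13.4 FPKM in hESC, 178 FPKM at D1, 62.5 FPKM at D4 and 62.9 FPKM in cardiomyocytes.

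**Figure D5:**
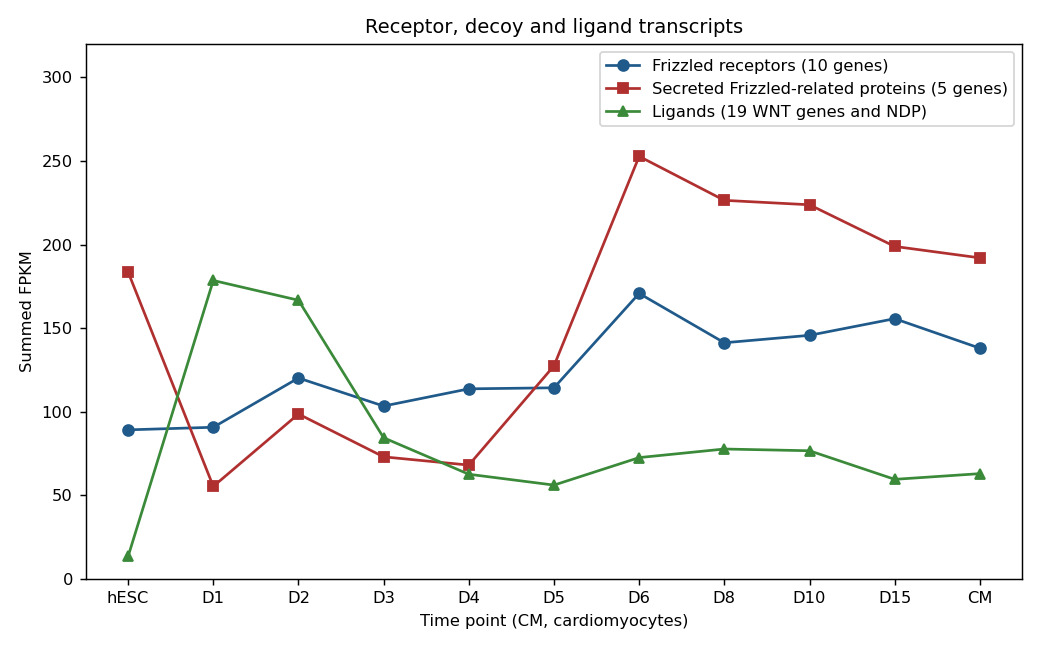
Summed FPKM of the Frizzled receptors, the secreted Frizzled-related proteins and the ligands at the 11 time points. The Frizzled sum stays between 89.1 and 171 FPKM, while the secreted proteins stand at 55.3 FPKM and the ligands at 178 FPKM at D1.

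Genes whose course was most like that of each member reaching 5 FPKM were picked by Pearson's r of log2(FPKM + 1) over the 11 time points, among 11555 protein-coding genes reaching 5 FPKM. These values describe likeness over points that follow each other in 1 course, and no test was made. FZD10 was most like SP5 (r = 0.99), which codes for a transcription factor and is a response gene of the WNT pathway, and FOXB1 (r = 0.98), which codes for a forkhead factor. FZD4 was most like NAALAD2 (r = 0.98) and CTTNBP2 (r = 0.97), and FZD6 was most like EPB41L3 (r = 0.98) and the cytokine receptor subunit IL6ST (r = 0.97). FZD1 was most like ZNF436 (r = 0.97), and FZD8 was most like the glucocorticoid receptor NR3C1 and C14orf132, both with r = 0.97. FZD3 was most like SLC6A6, the taurine transporter, and SYT6, both with r = 0.96.

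The other members had lower values. FZD2 was most like PCDHGA10 (r = 0.95) and ADAMTS10 (r = 0.94), and FZD5 was most like FXR1 and the kinase gene CSNK1E, both with r = 0.94. FZD7 had no close counterpart, with DOK1 at r = 0.80 and SEMA4C at r = 0.79. Among the members themselves the highest values were 0.88 for FZD1 with FZD8 and 0.86 for FZD4 with FZD6. The lowest was -0.81 for FZD3 with FZD8.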

How the data were processed

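RNA of 30 libraries (15 groups of 2) was measured. The time-course values deposited by the authors are FPKM, a unit taken from the values and from the submitters' processing notes, with 1 value per gene and time point. Per the submitters' processing notes, TopHat2 2.0.8b, Bowtie2 2.1.0.0, Cufflinks and hg19 were used; the sources used here give no annotation, strand setting or scaling. Per the file headers, the sort tables hold the authors' FPKM, log2 fold change, p-value and q-value, and they list only genes with a q-value under 0.05. The number of genes tested in each sort (16013 to 16649 at day 3, 11548 to 13305 at day 4) was derived by dividing q-values by p-values at each rank.

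Entries of at least 1 FPKM at 1 or more time points were kept, and differences were taken on log2(FPKM + 1), which understates changes of low genes. The planned limma test needs libraries apart and was not run. No label states that a group's libraries are separate cultures, and the spread behind the authors' p-values may be technical. The members, lists, markers and comparisons were chosen with earlier results of these data known. Genes named were all members, up to 4 genes per list by size of change, and the 2 genes most like each member, of which 1 is not reported here. NDP, TSPAN12 and SFRP5 were also named for their known link to FZD4 or to the heart, after values were seen. MIR4683, PRSS23 and BAALC-AS1 were named for their overlap, and BAALC as a neighbour, also after values were seen. The library depth is unknown, and relative depth came from the spacing of low values. GENCODE 29, another build, served for gene type (76.6% of kept entries matched) and exon overlap. Alternatives were pseudocount, rescaling, fold threshold, time points and q-value; using D1 in place of hESC was chosen after seeing the data. Python 3.11.15, numpy 2.4.6 and pandas 2.3.3 were used, and the scripts were tested on simulated data.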

Additional observations from a re-analysis of the deposited data

How the results depend on the processing

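A change of pseudocount cannot reverse the direction of a difference. Rescaling shifted the 6 time-course comparisons by at most 0.469 on the log2 scale, too little to reverse a member that had passed 2-fold. That no such member reversed its direction is thus not a check. At 1.5-fold, 2 members were lower at D1 than in hESC (1 at 2-fold), 3 were higher at D10 than at D4 (1), 2 were lower at D15 than at D10 (1), and 2 were lower in cardiomyocytes than at D15 (1). With D3 in place of D4, 1 member was higher than at D1 (3 with D4), and with D8 in place of D10, 0 were higher than at D4 (1 with D10). With cardiomyocytes in place of D15, 1 was higher (2) and 2 lower (1) than at D10. With rescaled columns, 0 members were lower at D15 than at D10 (1), 0 higher (1) and 2 lower (1) in cardiomyocytes than at D15, and 1 lower in cardiomyocytes than in hESC (2). With a pseudocount of 0.1, 2 were lower in cardiomyocytes than at D15 (1) and 4 lower than in hESC (2). With D1 in place of hESC 1 was lower in cardiomyocytes (2). At a q-value under 0.01, 1 member was lower in PMESO cells (3) and 1 higher in CMESO cells (2). At 1 FPKM and 2-fold, 0 were lower in PMESO cells (3), and 0 higher (2) and 1 lower (5) in CMESO cells. The summed Frizzled FPKM spanned 3.08-fold when rescaled (1.92). Of 10 members, 6 kept the time point of their highest value without hESC, D15 and cardiomyocytes. This follows from where the highest values lie and is not a separate check. The share of all entries called under these alternatives, here or above, was not counted, so a change in a count cannot be set against it. Reasons were not tested.

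No paired analysis was possible because each group has 1 deposited value, and leaving out replicates was not run for the same reason. Time-course differences have no replicate check.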

Other observations

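Other proteins with a Frizzled-like cysteine-rich domain followed courses of their own. CORIN, a heart protease that processes a natriuretic peptide, was 0.491 FPKM in hESC, 7.41 FPKM at D10, 55.7 FPKM at D15 and 78.5 FPKM in cardiomyocytes. SMO, the Hedgehog receptor partner, was 14.5 FPKM in hESC, 41.0 FPKM at D6 and 20.3 FPKM in cardiomyocytes. MFRP and MUSK stayed at or below 0.463 FPKM at every time point.

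FZD10-AS1, a transcript listed beside FZD10, was highest at D1 with 2.60 FPKM, against 0.420 FPKM in hESC, the day on which FZD10 was highest. No exon overlap of this transcript with FZD10 was found in GENCODE 29. Among transducers inside the cell, DAAM1, a formin of the polarity branch, was 70.6 FPKM in cardiomyocytes, against 15.5 FPKM in hESC. LEF1 was highest at D4 with 72.5 FPKM and stood at 14.5 FPKM in cardiomyocytes.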
